A study of Homo sapiens with 6 samples.

Results

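Tight junctions seal the space between neighbouring epithelial cells. Expression of 9 genes of this structure was examined in WT and LSD1 KO HCT116 cells, out of 60240 genes listed in the count table. They were the scaffold genes TJP1 and TJP3, the occludin gene OCLN, the claudin genes CLDN1, CLDN3, CLDN4, CLDN7 and CLDN12, and the junctional adhesion molecule gene F11R. The genes were chosen from measured differences between LSD1 KO and WT libraries, so their differences in that comparison are given as a description, and the counts of genes called among them support nothing. All 9 genes were matched to 1 row each through the Ensembl identifier, and all 9 passed the low-count filter.

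RNA-seq was performed on polyA RNA from HCT116, an established human colorectal carcinoma line, with 3 libraries of WT cells and 3 of LSD1 KO cells. In the LSD1 KO cells a CRISPR/Cas9 guide had been directed at exon 1 of LSD1, an H3K4 demethylase encoded by KDM1A, and single clones were expanded after puromycin selection. The methods speak of biological replicates for the experiments in general. The number of clones, and whether these RNA-seq libraries came from separate cultures, are not given in the sources used here, so p-values measure only the spread between these libraries. KDM1A (ENSG00000004487.17) was expressed at 231.2, 224.4 and 213.7 CPM in WT replicates 1 to 3 and at 29.9, 27.6 and 27.8 CPM in LSD1 KO replicates 1 to 3, with a log2 fold change of -2.97 (SE 0.15).

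Claudins are membrane proteins with 4 transmembrane segments, and their extracellular loops form the paracellular barrier and, for some members, its ion pores. Occludin and the junctional adhesion molecules lie beside them in the membrane. The ZO scaffolds, among them ZO-1 (TJP1) and ZO-3 (TJP3), bind the cytoplasmic tails of these proteins and link them to the actin cytoskeleton. In colon epithelium, CLDN3, CLDN4 and CLDN7 are commonly counted among the sealing claudins.

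Total counts were between 25379279 and 29186963 per library, and expression is given in CPM, counts scaled to the library size with TMM factors. A count of 3, taken as the floor of detection, equalled 0.0994 to 0.114 CPM in these libraries and covers counting error only. Replicate 2 of both groups stood apart from the other libraries. At a q value under 0.1, 6829 of 17672 genes (38.6%) differed between replicate 2 and replicates 1 and 3 (edgeR quasi-likelihood test with the replicate block). That test measures the spread within same-numbered pairs only, so the count is a description. The contrast was run for replicate 2 only, so the count has no comparator for replicates 1 and 3. Between replicates 1 and 2, chi-square per degree of freedom of the counts was 110 in WT and 115 in LSD1 KO. It was 64.4 and 72.1 between replicates 2 and 3, and 42.3 and 43.8 between replicates 1 and 3. Differences are therefore also given within pairs of same-numbered libraries, and the fold changes of all 9 genes without replicate 2 of both groups follow the account of single genes. The epithelial markers KRT8, KRT18, KRT19, EPCAM and CDH1 summed to 2031 to 3799 CPM in WT and 2407 to 3141 CPM in LSD1 KO libraries. Within this list KRT18 and EPCAM were lower in every LSD1 KO library than in any WT library, with means of 508.0 CPM in WT and 358.9 CPM in LSD1 KO for KRT18. The means of KRT8 and CDH1 were also lower in LSD1 KO, with overlap, and that of KRT19 was higher. Of the 4 markers of colon epithelium, CDX2 carried nearly all of the sum (12.6 to 21.5 CPM in WT, 13.8 to 19.6 CPM in LSD1 KO), while VIL1, CDH17 and GPA33 had at most 8 counts in any library. The fibroblast list summed to 20.5 to 24.2 CPM in WT and 30.3 to 34.4 CPM in LSD1 KO, nearly all from COL1A1, with LUM at 0 in all 6 libraries. The leukocyte list summed to 16.1 to 19.7 CPM in WT and 22.2 to 32.7 CPM in LSD1 KO, nearly all from CD68, with CD3E at 0. The endothelial list, in which 3 of 4 markers were matched, summed to at most 1.16 CPM in WT and 1.59 CPM in LSD1 KO. The part of these markers in the results was not tested. In bulk RNA, fewer cells of a type and less RNA per cell cannot be told apart.

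Among the 9 genes, TJP3 was the one with the largest difference, higher in LSD1 KO cells, and CLDN7 was the one with the largest difference in the other direction with all 6 libraries. Without WT replicate 2, TJP1 (-0.40) was level with CLDN7 (-0.40) on the log2 scale. The log2 fold change was above 0 for 5 genes (TJP3, CLDN1, CLDN3, CLDN4 and CLDN12) and below 0 for 4 (CLDN7, F11R, TJP1 and OCLN), with a median of 0.32. Over all 17672 genes tested, the median was 0.00082. In the model without a replicate block, 0 of the 9 genes were called at a q value under 0.1 in edgeR's quasi-likelihood test, against 0.00566% of all genes tested. An unadjusted p under 0.05 was found for 2 of the 9 without the block, where 552 of 17672 genes had one, and for 6 of the 9 with it, where 2373 had one. With the replicate number as a block, 1 of the 9 was called (TJP3), against 1.6% of all genes. DESeq2's Wald test called the same 1 gene, against 0.376% of all genes to which it gave a q value. The LSD1 KO and WT libraries did not overlap for 2 of the 9, TJP3 and CLDN12, against 7.74% of all genes tested. Nothing is read from these counts, because the genes were chosen on this comparison.

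**Figure D1:**
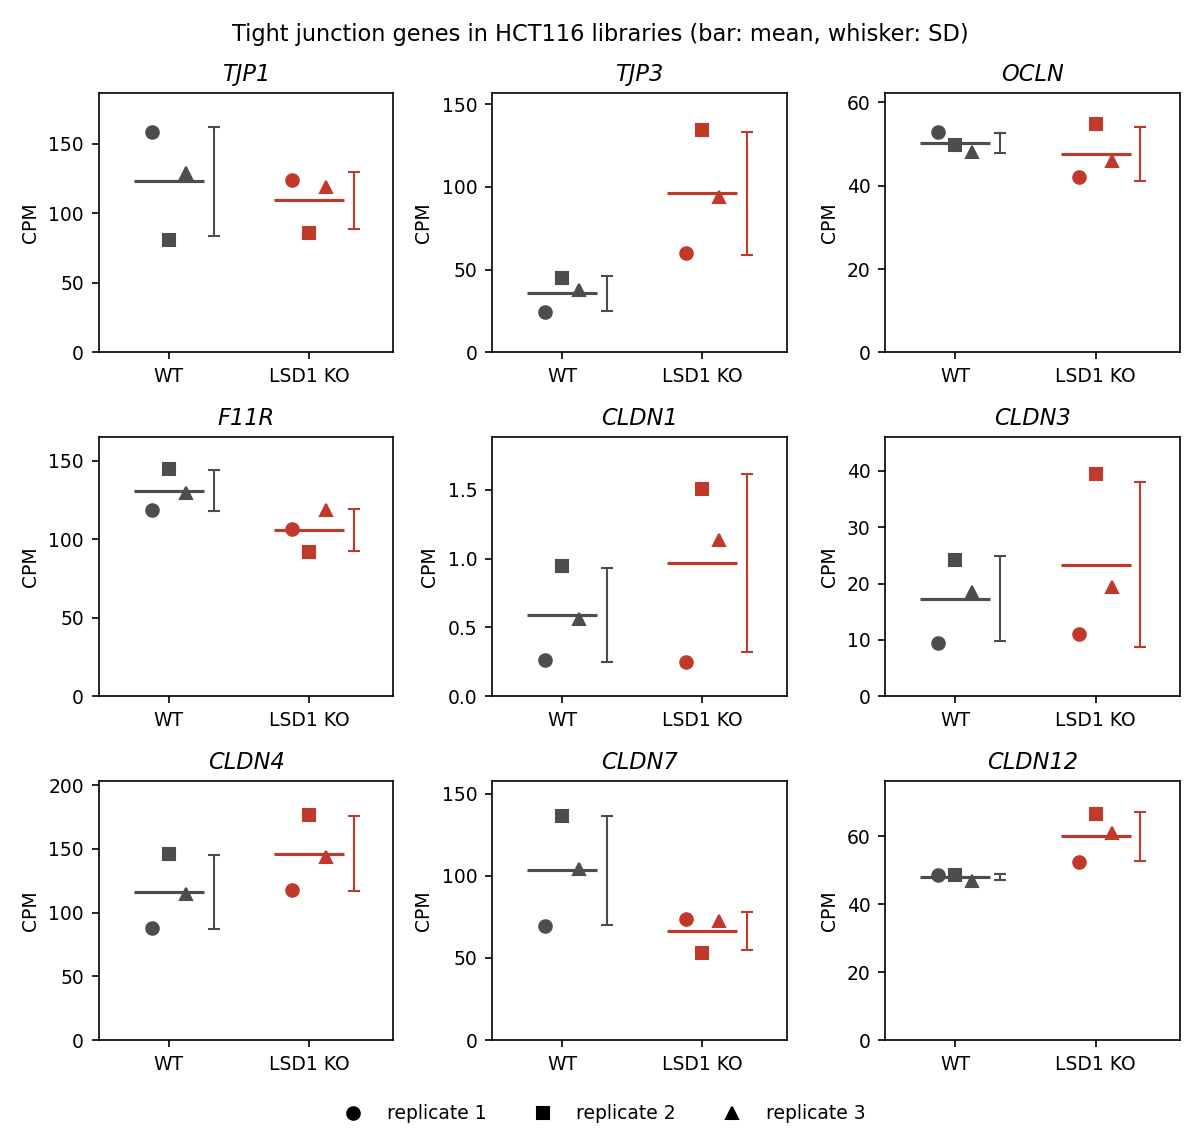
Expression of the 9 genes in CPM (linear axis from 0) in WT (grey) and LSD1 KO (red) libraries; circles, squares and triangles are replicates 1, 2 and 3, horizontal bars are means and whiskers are SD (n = 3). TJP3 (24.4 to 45.3 CPM in WT, 60.3 to 134.2 CPM in LSD1 KO) and CLDN12 had no overlap between the groups.

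The scaffold gene TJP3 (ENSG00000105289.15) encodes ZO-3, an epithelial member of the ZO family, and lies at chr19:3708384-3750813 (GRCh38.p14, plus strand). TJP3 expression was 24.4, 45.3 and 37.9 CPM in WT replicates 1 to 3 and 60.3, 134.2 and 93.9 CPM in LSD1 KO replicates 1 to 3. Every LSD1 KO library was above every WT library, and replicate 2 was the highest in both groups. The means were 35.9 ± 10.6 CPM (SD, n = 3) in WT and 96.1 ± 36.99 CPM (SD, n = 3) in LSD1 KO, a ratio of 2.68. The log2 fold change of TJP3 was 1.42 (SE 0.32), and 1.396 (SE 0.098) with the replicate block. Within the 3 pairs, LSD1 KO exceeded WT by 1.31, 1.57 and 1.31 on the log2 scale. Over the 14 alternative settings the log2 fold change of TJP3 ranged from 1.09 to 1.67. RefSeq gives 2 transcription starts for TJP3. The 250 bases before the downstream start, which lies inside the gene at chr19:3721487-3721736 (GRCh38.p14, plus strand), are printed because they hold a copy of CAGGTG, an E-box hexamer of the kind that zinc finger E-box proteins such as ZEB1 bind. The 250 bases before the upstream start, chr19:3708134-3708383 (GRCh38.p14, plus strand), held no copy on either strand. The downstream sequence is written 5′ to 3′ with the hexamer in capitals.
TJP3 downstream start: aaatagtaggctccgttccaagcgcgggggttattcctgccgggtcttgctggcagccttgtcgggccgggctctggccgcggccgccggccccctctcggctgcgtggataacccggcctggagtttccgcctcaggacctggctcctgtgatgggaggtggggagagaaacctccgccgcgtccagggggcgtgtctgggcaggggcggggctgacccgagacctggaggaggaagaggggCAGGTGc

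TJP1 (ENSG00000104067.17), which encodes the scaffold ZO-1, lies at chr15:29699367-29969049 (GRCh38.p14). TJP1 expression was 158.9, 81.2 and 129.0 CPM in WT replicates 1 to 3 and 123.8, 86.0 and 118.9 CPM in LSD1 KO replicates 1 to 3. The groups overlapped, and replicate 2 was the lowest library in both. The means were 123.0 ± 39.2 CPM (SD, n = 3) in WT and 109.6 ± 20.6 CPM (SD, n = 3) in LSD1 KO, a log2 fold change of -0.17 (SE 0.26). The differences within the pairs were -0.36, 0.083 and -0.12 on the log2 scale, so the pairs differed in sign. The log2 fold change of TJP1 was 0.060 without WT replicate 1, -0.40 without WT replicate 2, -0.26 without LSD1 KO replicate 1 and -0.037 without LSD1 KO replicate 2.

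Per kilobase of the canonical transcript, TJP3 was higher relative to TJP1 in LSD1 KO cells. The summed CPM per kb of TJP1 and TJP3 was 30.02, 26.01 and 30.3 in WT replicates 1 to 3 and 36.8, 55.6 and 47.1 in LSD1 KO replicates 1 to 3. The ratio of TJP3 to TJP1 was 0.359, 1.304 and 0.687 in WT and 1.14, 3.65 and 1.85 in LSD1 KO replicates 1 to 3. The ratios overlapped between the groups, since LSD1 KO replicate 1 lay below WT replicate 2, but LSD1 KO was above WT in each pair. The share of TJP3 in the sum was 41.2% ± 15.1 (SD, n = 3) in WT and 65.5% ± 12.6 (SD, n = 3) in LSD1 KO.

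CLDN4 (ENSG00000189143.9) and CLDN7 (ENSG00000181885.18), the most abundant claudin transcripts per kilobase here, had mean differences of opposite sign, although the groups overlapped for both and both were higher in LSD1 KO in pair 1. CLDN4 lies at chr7:73830996-73832690, and CLDN7 at chr17:7259903-7263213 (GRCh38.p14). CLDN7 expression was 69.6, 136.3 and 104.1 CPM in WT replicates 1 to 3 and 73.9, 53.3 and 72.3 CPM in LSD1 KO replicates 1 to 3. The groups overlapped through WT replicate 1, which lay below 2 of the LSD1 KO libraries. Replicate 2 was the highest WT library and the lowest LSD1 KO library. The CLDN7 means were 103.3 ± 33.4 CPM (SD, n = 3) and 66.5 ± 11.4 CPM (SD, n = 3), so that LSD1 KO cells had 64.4% of the WT level, with a log2 fold change of -0.64 (SE 0.26). Within the pairs the difference was 0.087, -1.35 and -0.53 on the log2 scale. The log2 fold change of CLDN7 was -0.40 without WT replicate 2, and -0.24 with the replicate block after replicate 2 was left out, a fit added with the data already known.

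CLDN4 expression was 87.7, 146.0 and 114.7 CPM in WT replicates 1 to 3 and 117.8, 176.9 and 143.9 CPM in LSD1 KO replicates 1 to 3. The groups overlapped, but LSD1 KO was above WT in each of the 3 pairs, by 0.43, 0.28 and 0.33 on the log2 scale. The CLDN4 means were 116.1 ± 29.2 CPM (SD, n = 3) in WT and 146.2 ± 29.7 CPM (SD, n = 3) in LSD1 KO. The log2 fold change was 0.33 (SE 0.23) without the replicate block and 0.34 (SE 0.085) with it. Without the block it was 0.17 without WT replicate 1, 0.15 without LSD1 KO replicate 2 and 0.53 without WT replicate 2.

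The windows of 250 bases before the starts of CLDN7 and CLDN4 are printed because their mean differences had opposite signs. CLDN7 has 2 starts in RefSeq (GRCh38.p14, minus strand), and the window before the downstream one, chr17:7262479-7262728, held 4 copies of CAGGTG or its reverse complement CACCTG, written in capitals. The first bases of these copies lay 174, 135, 20 and 9 bases before that start. The window before the upstream start, chr17:7263214-7263463, held none. Among all 35116 windows of this length in the RefSeq table, 0.464% held 3 or more copies. The CLDN4 window, chr7:73830746-73830995 (plus strand), held none. Both genes were picked on their differences between LSD1 KO and WT, so nothing is read from this contrast. TJP3, which had the largest rise, also held a copy.
CLDN7 upstream start: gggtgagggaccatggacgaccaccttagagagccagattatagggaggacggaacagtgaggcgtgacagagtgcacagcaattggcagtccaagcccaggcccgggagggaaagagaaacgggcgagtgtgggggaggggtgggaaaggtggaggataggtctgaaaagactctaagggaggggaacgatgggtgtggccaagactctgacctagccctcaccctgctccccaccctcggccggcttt
CLDN7 downstream start: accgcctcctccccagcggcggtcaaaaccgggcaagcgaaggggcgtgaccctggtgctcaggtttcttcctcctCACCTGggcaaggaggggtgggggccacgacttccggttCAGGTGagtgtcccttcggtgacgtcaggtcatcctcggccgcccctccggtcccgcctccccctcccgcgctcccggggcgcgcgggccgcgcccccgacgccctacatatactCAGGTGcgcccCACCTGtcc
CLDN4 start: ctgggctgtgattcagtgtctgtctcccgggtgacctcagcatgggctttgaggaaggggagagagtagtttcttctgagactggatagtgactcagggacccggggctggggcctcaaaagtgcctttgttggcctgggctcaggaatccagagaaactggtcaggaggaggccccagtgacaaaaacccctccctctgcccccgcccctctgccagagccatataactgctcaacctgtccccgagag

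Promoter windows were found for 8 of the 9 genes, 14 windows in all. F11R had a position in the annotation but no entry among the promoter windows used. CAGGTG, searched on both strands, was present in 5 of the 14 windows, which belonged to TJP1, TJP3, OCLN and CLDN7, against 17.5% of all 35116 windows. Besides the copies shown, TJP1 held 1 copy at 88 bases before its upstream start, and both OCLN windows held 1 copy, at 33 and 133 bases before the start. The GRHL motif AACCNGTT (reverse complement AACNGGTT) was in 0 of the 14 windows, against 1.49% of all windows. The GC box GGGCGG was in 10 of the 14, against 42.6%, and TATAAA in 0 of the 14, against 10.7%. A match describes letters in these windows and not binding, and the absence of a match says nothing of the factor.

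CLDN3 (ENSG00000165215.6), CLDN12 (ENSG00000157224.16) and CLDN1 (ENSG00000163347.6) had higher means in LSD1 KO cells. CLDN3, which neighbours CLDN4 on chromosome 7 (chr7:73768997-73770270, GRCh38.p14), was 9.37, 24.2 and 18.5 CPM in WT replicates 1 to 3 and 11.1, 39.5 and 19.5 CPM in LSD1 KO replicates 1 to 3. The groups overlapped, and LSD1 KO replicate 2 was by far the highest library. The means of CLDN3 were 17.3 ± 7.47 CPM (SD, n = 3) and 23.4 ± 14.6 CPM (SD, n = 3), with a log2 fold change of 0.43 (SE 0.47). Within the pairs LSD1 KO exceeded WT by 0.24, 0.71 and 0.076 on the log2 scale. CLDN3 had a log2 fold change of -0.20 without LSD1 KO replicate 2, 0.13 without WT replicate 1, 0.74 without WT replicate 2 and 0.77 without LSD1 KO replicate 1.

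CLDN12 (chr7:90403461-90415954, GRCh38.p14), a claudin known for lacking the C-terminal motif through which most claudins bind the ZO scaffolds, was 48.4, 48.6 and 46.9 CPM in WT replicates 1 to 3 and 52.4, 66.5 and 60.8 CPM in LSD1 KO replicates 1 to 3. The WT libraries lay close together, and all LSD1 KO libraries were above them. The means were 48.0 ± 0.96 CPM (SD, n = 3) and 59.9 ± 7.10 CPM (SD, n = 3), a log2 fold change of 0.32 (SE 0.15). Within the pairs the differences were 0.11, 0.45 and 0.37 on the log2 scale, and across the 14 alternatives the log2 fold change of CLDN12 was between 0.22 and 0.41. CLDN1 (chr3:190305707-190322446, GRCh38.p14), a claudin of the epidermal barrier, was near the limit of detection, with raw counts of 7, 25 and 17 over WT replicates 1 to 3 and of 7, 41 and 30 over LSD1 KO replicates 1 to 3. Its means were 0.591 ± 0.342 CPM (SD, n = 3) in WT and 0.966 ± 0.647 CPM (SD, n = 3) in LSD1 KO, and replicate 1 was the lowest in both groups. The log2 fold change of CLDN1 was 0.70 with an SE of equal size, and the pairs differed by -0.079, 0.67 and 1.01 on the log2 scale. It was 0.20 without LSD1 KO replicate 2, 0.35 without WT replicate 1, 1.20 without WT replicate 2 and 1.16 without LSD1 KO replicate 1.

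With all 6 libraries, occludin had the log2 fold change nearest to 0. OCLN (ENSG00000197822.11, chr5:69492547-69558104, GRCh38.p14) was 52.8, 49.7 and 48.0 CPM in WT replicates 1 to 3 and 42.1, 54.8 and 46.0 CPM in LSD1 KO replicates 1 to 3. The LSD1 KO libraries spanned the WT range on both sides. The OCLN means were 50.1 ± 2.45 CPM (SD, n = 3) and 47.6 ± 6.47 CPM (SD, n = 3), with a log2 fold change of -0.074 (SE 0.16), which was 0.0072 without LSD1 KO replicate 1 and -0.20 without LSD1 KO replicate 2. The differences within the pairs were -0.33, 0.14 and -0.060 on the log2 scale.

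F11R (ENSG00000158769.18, chr1:160995211-161021152, GRCh38.p14) encodes JAM-A, an immunoglobulin-like adhesion protein. F11R expression was 118.8, 144.7 and 129.8 CPM in WT replicates 1 to 3 and 106.5, 91.9 and 118.9 CPM in LSD1 KO replicates 1 to 3. The groups overlapped only at WT replicate 1 and LSD1 KO replicate 3, and LSD1 KO was below WT in each pair, with differences of -0.16, -0.65 and -0.13 on the log2 scale. The means were 131.1 ± 13.02 CPM (SD, n = 3) and 105.8 ± 13.5 CPM (SD, n = 3), with a log2 fold change of -0.31 (SE 0.17). Of the distinct 31-base words in the annotated transcripts of F11R, 40.7% also occurred in other genes, and 35.4% in the overlapping gene ENSG00000270149 on the same strand, so that the division of counts between the pair is uncertain. With the counts of ENSG00000270149 added, the means were 139.3 ± 7.89 CPM (SD, n = 3) in WT and 115.1 ± 18.7 CPM (SD, n = 3) in LSD1 KO.

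The same check found 16.7% of the words of CLDN12 in other genes, among them PTTG1IP2 and GTPBP10, and 12.3% of those of OCLN, among them the pseudogene OCLNP1. Adding OCLNP1 to OCLN gave 50.7 ± 2.68 CPM (SD, n = 3) in WT and 48.4 ± 6.49 CPM (SD, n = 3) in LSD1 KO. For CLDN7 the share was 9.2%, all in ENSG00000262302, which had at most 3 counts in any library. CLDN3, CLDN4, TJP3, TJP1 and CLDN1 shared between 0% and 3.3%.

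With replicate 2 of both groups left out, the log2 fold changes without a block were 1.29 for TJP3, 0.70 for CLDN1, 0.35 for CLDN4, 0.23 for CLDN12 and 0.11 for CLDN3. They were -0.16 for F11R, -0.21 for OCLN, -0.26 for TJP1 and -0.27 for CLDN7. All 9 kept their sign, while the values of CLDN3, CLDN7 and F11R shrank by over 1.5 times and those of OCLN and TJP1 grew by as much.

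**Figure D2:**
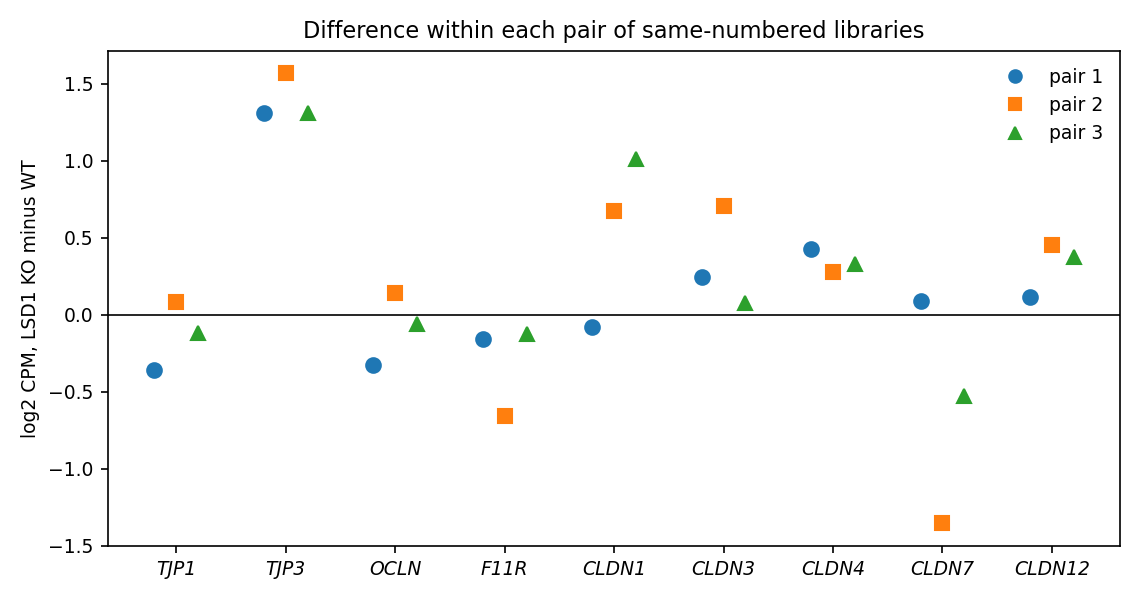
Difference of log2 CPM, LSD1 KO minus WT, within each pair of same-numbered libraries (circles, squares and triangles are pairs 1, 2 and 3) for the 9 genes. TJP3 lay between 1.31 and 1.57 in all pairs, while CLDN7 ranged from -1.35 in pair 2 to 0.087 in pair 1.

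Levels of the 9 genes were compared with each other only as CPM per kilobase of the canonical transcript. In WT cells the order of the mean levels per kilobase was CLDN4 (68.5 ± 17.2), CLDN7 (67.0 ± 21.6), F11R (28.3 ± 2.81), TJP1 (17.1 ± 5.45), CLDN3 (13.6 ± 5.87), CLDN12 (13.6 ± 0.272), TJP3 (11.7 ± 3.45), OCLN (8.11 ± 0.396) and CLDN1 (0.172 ± 0.0992), each in CPM per kb with its SD over 3 libraries. CLDN4 and CLDN7 did not differ beyond their spread, nor did neighbours from TJP1 down to OCLN. F11R lay below CLDN7 and above TJP1 in every WT library, and CLDN1 below all others. In LSD1 KO cells CLDN4 (86.3 ± 17.5) and CLDN7 (43.1 ± 7.42) no longer overlapped, and TJP3 came next at 31.3 ± 12.0 CPM per kb, overlapping CLDN7. F11R followed at 22.8 ± 2.91, CLDN3 at 18.3 ± 11.5, CLDN12 at 17.0 ± 2.01, TJP1 at 15.2 ± 2.86, OCLN at 7.71 ± 1.05 and CLDN1 at 0.280 ± 0.188 CPM per kb (SD, n = 3). Between TJP3, F11R, CLDN3, CLDN12 and TJP1, neighbours in this order overlapped.

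The 24 claudins summed to 176.3 ± 46.1 CPM per kb (SD, n = 3) in WT and 180.3 ± 26.5 CPM per kb (SD, n = 3) in LSD1 KO cells. The 5 claudins described above held 92.2% ± 1.32 and 91.5% ± 0.0772 of that sum. CLDN4 made up 40.0%, 38.9% and 38.1% of the sum in WT replicates 1 to 3 and 45.1%, 50.4% and 47.2% in LSD1 KO replicates 1 to 3. CLDN7 made up 34.9%, 39.9% and 38.0% in WT and 31.1%, 16.7% and 26.1% in LSD1 KO. Neither share overlapped between the groups, although the CPM of both genes did. The ratio of CLDN4 to CLDN7 per kilobase was 1.15, 0.974 and 1.00 in WT replicates 1 to 3 and 1.45, 3.02 and 1.81 in LSD1 KO replicates 1 to 3. CLDN3 held 7.47% ± 1.56 (SD, n = 3) of the sum in WT and 9.71% ± 4.78 (SD, n = 3) in LSD1 KO, and CLDN12 held 8.09% ± 2.25 and 9.43% ± 0.292. These shares come from the comparison on which the genes were chosen and were not tested.

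**Figure D3:**
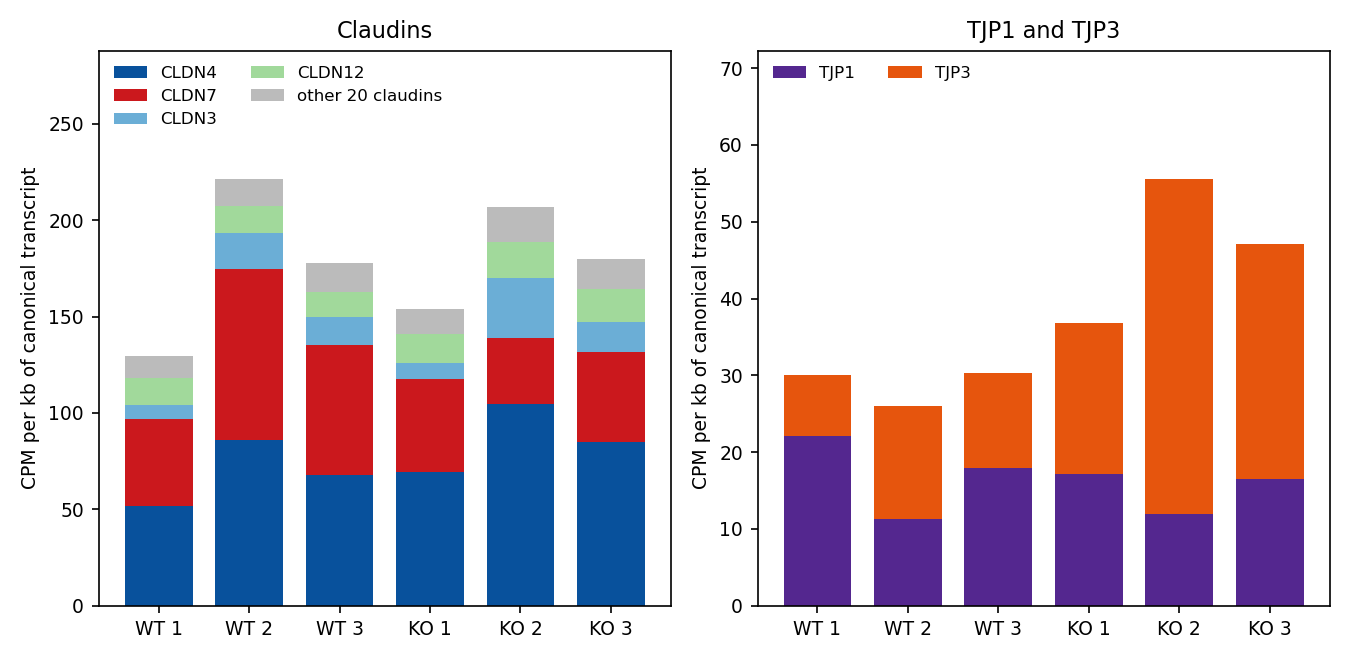
Stacked CPM per kilobase of canonical transcript in each library, for 24 claudins (left) and for TJP1 and TJP3 (right); WT 1 to KO 3 are single libraries, so no error bars are drawn. The CLDN4 share was 38.1% to 40.0% in WT and 45.1% to 50.4% in LSD1 KO, and the ratio of TJP3 to TJP1 was 0.359 to 1.304 and 1.14 to 3.65.

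Replicate 2 was also compared with replicates 1 and 3 over both groups, a contrast that played no part in choosing the 9 genes and was chosen after the data were seen. In the model with the replicate block, 5 of the 9 genes passed a q value under 0.1 for replicate 2 against replicates 1 and 3 (edgeR quasi-likelihood test, Benjamini-Hochberg over 17672 genes), where 38.6% of all genes did, so the count is near the share over all genes. CLDN1 was higher by 1.38 (SE 0.42, q = 0.0414), CLDN3 by 1.16 (SE 0.15, q = 0.00194), TJP3 by 0.71 (SE 0.099, q = 0.00248) and CLDN4 by 0.49 (SE 0.089, q = 0.00584) on the log2 scale. TJP1 was lower, with a log2 difference of -0.66 (SE 0.11, q = 0.00508). The difference was 0.15 for OCLN (q = 0.366), 0.15 for CLDN7 (q = 0.678), 0.13 for CLDN12 (q = 0.377) and -0.027 for F11R (q = 0.892). For TJP1, CLDN1, CLDN3 and CLDN4 this difference between replicates was larger in size than the log2 fold change between LSD1 KO and WT, and for TJP3 it was smaller. Same-numbered libraries were treated as pairs, so these SE and q values measure the spread within pairs and not between replicate sets. Replicate 2 was picked because it stood apart, so the q values restate that observation and nothing is read from them. What sets replicate 2 apart was not tested.

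The 77 other genes listed for the junction, of which 57 could be tested, held 0 calls at a q value under 0.1 in edgeR's quasi-likelihood test without the block, with 10 genes at an unadjusted p under 0.05, where 552 of all 17672 genes had one. With the replicate block 6 of the 57 were called, 4 higher and 2 lower, against 1.6% of all genes, and DESeq2 called 6 of 68, against 0.376%. The lists were drawn up with earlier results of these data known, so nothing is read from their counts against these shares. Fitted without a block, DESeq2's Wald test called GRHL2 (q = 3.6e-07), ZEB1 (q = 0.0072), ELF3 (q = 0.0352), CXADR (q = 0.0391), EPCAM (q = 0.0508) and OVOL2 (q = 0.0767). It did not call CGN. All 6 genes from the block were also called with the block after replicate 2 was left out. The median log2 fold change of the 57 genes was 0.083, and the LSD1 KO libraries lay wholly above WT for 8 and wholly below for 6, where 7.74% of all genes did not overlap in either direction. Unless DESeq2 or another setting is named, q values below are from edgeR's quasi-likelihood test with Benjamini-Hochberg adjustment over 17672 genes. The numbers of genes that could be tested are also from edgeR unless DESeq2 is named.

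Of the other claudins, 5 of 19 could be tested in edgeR, and DESeq2 tested 12. In edgeR's quasi-likelihood test 0 passed with or without the block, and 0 had an unadjusted p under 0.05. In DESeq2 0 passed. CLDN15 was 9.74 ± 1.51 CPM (SD, n = 3) in WT and 11.6 ± 2.43 CPM (SD, n = 3) in LSD1 KO, a log2 fold change of 0.26 (q = 0.9995) that was 0.059 without LSD1 KO replicate 2 and 0.13 without WT replicate 1. CLDN2, a pore-forming claudin, had the largest log2 fold change of those above 1 CPM at 0.29 (q = 0.9995), which was below 0 without WT replicate 2 or without LSD1 KO replicate 3.

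Among the other membrane proteins, 10 of 11 could be tested. CXADR, the coxsackievirus and adenovirus receptor of epithelial junctions, was 47.0, 43.0 and 49.4 CPM in WT and 77.5, 72.2 and 85.6 CPM in LSD1 KO replicates 1 to 3. The groups did not overlap, and CXADR rose by 0.75 on the log2 scale in the model with the block (SE 0.087, q = 0.0135; q = 0.453 without the block). LSR, an angulin of tricellular junctions, was 240.9 ± 99.7 CPM (SD, n = 3) in WT and 193.5 ± 79.0 CPM (SD, n = 3) in LSD1 KO (q = 0.9995, and 0.184 with the block). LSR passed with the block after replicate 2 was left out (log2 fold change -0.33, q = 0.0696). Its relative ILDR2 was 6.57 ± 1.56 CPM (SD, n = 3) in WT and 3.01 ± 1.98 CPM (SD, n = 3) in LSD1 KO, a log2 fold change of -1.13 (q = 0.9995, and 0.146 with the block) without overlap. It was -0.71 without LSD1 KO replicate 2 and passed with the block after replicate 2 was left out (q = 0.0184).

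Of the other scaffold and polarity genes, 17 of 18 could be tested. CGN, which encodes the ZO-binding protein cingulin, was 19.5, 22.6 and 29.7 CPM in WT replicates 1 to 3 and 38.4, 36.6 and 43.3 CPM in LSD1 KO replicates 1 to 3. Its libraries did not overlap, and CGN rose by 0.74 on the log2 scale with the block (SE 0.11, q = 0.032; q = 0.847 without the block), while DESeq2 gave a q of 0.385. AFDN, the afadin gene, was 101.5 ± 19.8 CPM (SD, n = 3) in WT and 97.8 ± 16.6 CPM (SD, n = 3) in LSD1 KO (q = 0.9995).

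Of the regulators and partners, 11 of 12 could be tested. EPCAM, the gene of an epithelial adhesion protein that binds CLDN7 and stabilizes it at the membrane, was 191.2, 248.0 and 172.8 CPM in WT and 133.9, 77.6 and 101.4 CPM in LSD1 KO replicates 1 to 3. Every LSD1 KO library was below WT, and EPCAM fell by 0.98 on the log2 scale with the block (SE 0.20, q = 0.0788; q = 0.668 without the block). Replicate 2 was the highest WT library and the lowest LSD1 KO library, as it was for CLDN7, F11R and KRT18. The pattern was thus not particular to EPCAM and CLDN7. YBX3, which encodes the ZO-1-associated Y-box factor ZONAB, was 336.6 ± 63.9 CPM (SD, n = 3) in WT and 372.8 ± 36.1 CPM (SD, n = 3) in LSD1 KO (q = 0.9995).

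Of 17 transcription factors linked to claudin genes, 14 could be tested. GRHL2, an activator of epithelial junction genes, was 7.52, 5.60 and 8.58 CPM in WT and 0.536, 1.73 and 1.14 CPM in LSD1 KO replicates 1 to 3, and fell by 2.72 on the log2 scale with the block (SE 0.37, q = 0.0214; q = 0.391 without the block). OVOL2, a zinc finger repressor that maintains epithelial identity, was 1.22 ± 0.727 CPM (SD, n = 3) in WT and 4.19 ± 1.86 CPM (SD, n = 3) in LSD1 KO, and rose by 1.83 with the block (SE 0.25, q = 0.0216; q = 0.934 without the block). ZEB1, a repressor that binds E-boxes of epithelial genes, was 9.63 ± 1.25 CPM (SD, n = 3) in WT and 24.3 ± 9.13 CPM (SD, n = 3) in LSD1 KO, and rose by 1.28 with the block (SE 0.23, q = 0.0561; q = 0.464 without the block). ELF3, an epithelial ETS factor, was 38.4 ± 14.3 CPM (SD, n = 3) and 95.8 ± 34.4 CPM (SD, n = 3), and passed in DESeq2 (q = 0.0352) but not in edgeR with the block (q = 0.117). Within the pairs, LSD1 KO exceeded WT in ELF3 by 2.04, 0.20 and 1.725 on the log2 scale. In edgeR, ELF3 passed without the low-count filter (q = 0.00612). It also passed with the block after replicate 2 was left out (q = 2.7e-10). That fit was added with the data already known, drops the pair with the smallest difference and called 1055 genes. The groups did not overlap for any of the 4 factors.

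**Figure D4:**
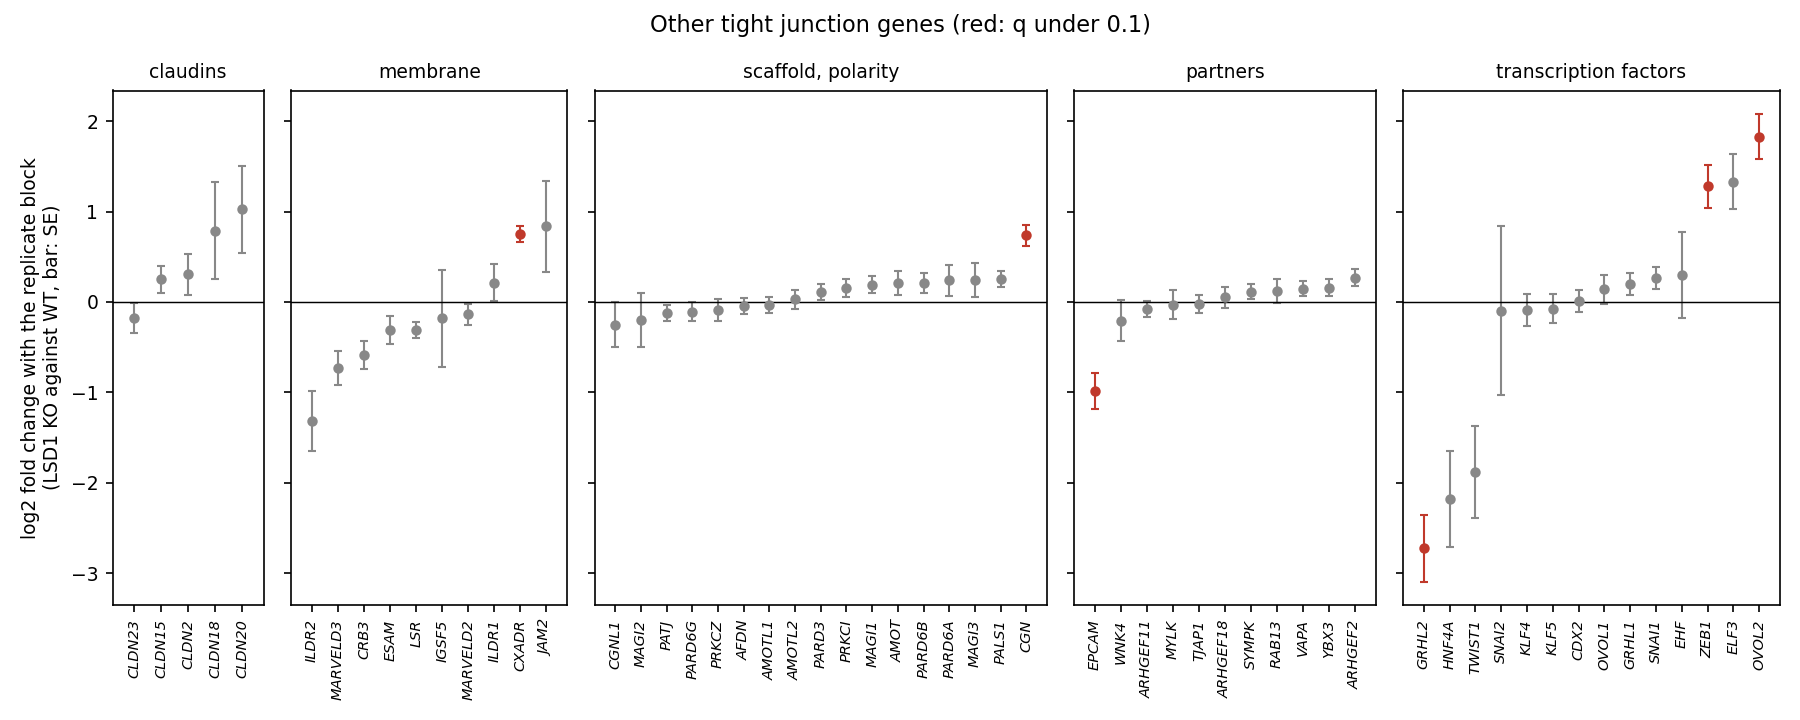
Log2 fold change (LSD1 KO against WT, model with the replicate block) of the 57 other junction genes tested, in 5 panels by role; points are estimates, bars are SE, and red marks a q value under 0.1. The 6 red points are CXADR, CGN, OVOL2 and ZEB1 above 0 and EPCAM and GRHL2 below 0.

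The genes whose log2 CPM over the 6 libraries was most like that of TJP3, among 14800 genes compared, were CPNE1 (Pearson's r 0.996), TOB1 (0.993), LAT2 (0.993), P4HA1 (0.992) and CD46 (0.991). Those most like CLDN7 were LRRC59 (0.986), CCDC86 (0.984), PISD (0.978), GPRIN1 (0.976) and TFAP4 (0.975). The 6 libraries share group and replicate structure, so these values describe likeness of pattern only. LAT2, the most different of the first set in proportion, had 10.1 CPM in WT and 22.3 CPM in LSD1 KO on average.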

How the data were processed

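After FastQC and trimming in Trimmomatic 0.39, the authors ran Salmon 1.4.0 on GENCODE transcripts of GRCh38 (versions from the submitters' processing notes). They deposited expected counts per gene as whole numbers, unscaled. The step from transcripts to genes is not given in the sources used here, nor is strand-specific counting. Of 60240 genes, 58395 were matched to a symbol and 33857 had counts. Totals per library were between 25379279 and 29186963, which limits genes near 3 counts.

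Counts were compared with edgeR 4.0.16 in R 4.3.3 (TMM, filterByExpr by group, quasi-likelihood test, Benjamini-Hochberg adjustment, q value under 0.1), which left 17672 genes. Log2 CPM for comparing patterns used a prior count of 2. DESeq2 1.42.0 and a model with the replicate number as a block were alternatives, as were other size factors, other filters, a q value under 0.05 and leaving out libraries. The labels number the replicates 1 to 3 in both groups. Deviations from the group means correlated across genes at 0.553, 0.553 and 0.404 between same-numbered libraries and at -0.516 to 0.0454 otherwise. The numbers were therefore treated as pairs. Deviations cancel out within a group for each gene, so high values for same-numbered libraries force lower ones elsewhere. The gap between them is thus partly built in. The pairing comes from the data, not from the labels, and the fits with the block rest on it. The common coefficient of variation fell from 0.279 to 0.133 when the block was added.

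The 9 genes and the lists were chosen with earlier results of these data known. Named were all 9 genes, other list genes with a q value under 0.1 in edgeR with or without the block, the gene of each list with the highest mean CPM over the 6 libraries (not scaled for length) and the one with the largest log2 fold change among those with a mean of at least 1 CPM, KDM1A, and the 5 genes most like TJP3 and CLDN7. SNAI2, TWIST1, MPDZ and the genes sharing sequence were named after their values were seen. Lengths came from canonical transcripts of GENCODE v44lift37, positions and promoter sequences from RefSeq (GRCh38.p14). Motifs were searched in the 250 bases before each start only. Shared sequence was counted in words of 31 bases. A further junction gene is not reported here. Steps were tested on simulated data. Figures used Python 3.11.15, pandas 2.3.3 and matplotlib 3.10.9.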

Additional observations from a re-analysis of the deposited data

How the results depend on the processing

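The number of genes called between LSD1 KO and WT was 1 in edgeR without a block, 114 without the low-count filter, 95 in DESeq2, 282 with the replicate block and 1055 with the replicate block after replicate 2 of both groups was left out, a setting added after the data were seen. The other junction genes called numbered 0, 5, 6, 6 and 15 in the same order, and the genes called among the 9 numbered 0, 1, 1, 1 and 2, the last being TJP3 and CLDN4. Nothing is read from the counts among the 9, which were chosen on this comparison. Leaving out libraries gave 1 to 26 genes, 0 to 1 other junction genes and 0 of the 9. The 26 were called without LSD1 KO replicate 2, and 22 were called without replicate 2 of both groups; GRHL2 was the other junction gene called in both settings. The median log2 fold change of the 9 genes was 0.12 when at least 10 counts were required in every library, which removed CLDN1, and 0.14 with the replicate block without replicate 2. It ranged from -0.037 without LSD1 KO replicate 2 to 0.41 over the settings that left out libraries, with 0.11 without replicate 2 and 0.13 without WT replicate 1. Over those settings the log2 fold change of CLDN2 ranged from -0.11 to 0.53, with -0.039 without WT replicate 2 and -0.11 without LSD1 KO replicate 3. That of LSR ranged from -0.69 to 0.012 (without WT replicate 2), and that of AFDN from -0.21 to 0.065 (without WT replicate 3), with 0.048 without LSD1 KO replicate 2. OCLN was 0.0072 without LSD1 KO replicate 1, a sign change from a value near 0. The cause of these changes was not tested. A q value under 0.05 and other size factors changed no call in the model without the block.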

Other observations

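Further junction genes were looked at after their values had been seen. MPDZ, a multi-PDZ scaffold that binds claudins, had 0 counts in all 6 libraries, which at a floor of 3 counts allows up to 0.0994 to 0.114 CPM, depending on the library. SNAI2, a repressor of epithelial genes, had raw counts of 9, 20 and 16 over WT replicates 1 to 3 and of 2, 98 and 1 over LSD1 KO replicates 1 to 3, so that LSD1 KO replicate 2 held both the highest value and the only one above WT. TWIST1, another transcription factor of this kind, had raw counts of 29, 62 and 65 over WT replicates 1 to 3 and of 4, 40 and 8 over LSD1 KO replicates 1 to 3. ENSG00000270149, which overlaps F11R, had 12 counts in WT replicate 2 and 63 in LSD1 KO replicate 2, against 299 to 404 counts in the other 4 libraries. F11R itself had no such gap in replicate 2.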
